A study of Mus musculus with 2148 samples.

Results

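The genes described here are 9 transcription factors that direct the differentiation of specialised cells outside the thymus: Foxj1 and Trp73 of multiciliated cells, Foxi1 and Ascl3 of ionocytes, Foxa1, Foxa2 and Foxa3 of secretory and endodermal epithelia, Grhl1 of the epidermis and Ptf1a of the exocrine pancreas. They were chosen by symbol. They are 9 of 48437 genes in the count table and 9 of the 39971 genes that passed the filter on low counts. All 9 are protein-coding.

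Medullary thymic epithelial cells (mTECs) display tissue-restricted self-antigens to developing T cells. Aire, a nuclear regulator, raises the expression of many such genes in mTECs with high MHC class II. Other mTECs take up parts of the programme of a peripheral cell type together with the lineage factor of that type, and are called mimetic cells.

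The data are single-cell RamDA-seq profiles, which read total RNA along the full length of the transcript, of thymic epithelial cells of C57BL/6 mice sorted as DAPI-CD45-EpCAM+ into MHC class II-high mTECs (mTEChi, Ly51-), MHC class II-low mTECs (mTEClo, Ly51-) and cortical cells (cTECs, Ly51+). Adult wild-type (WT) mTEChi were 620 cells (31.3% of all), of male mice of 4, 5 and 6 weeks and female mice of 4 weeks. Adult WT mTEClo were 18.0% of all cells, of males of 4, 5 and 8 weeks, and adult WT cTECs were 77 cells of males of 6 weeks. Aire-KO mTEChi (17.1% of cells, in 4 batches of 81 to 87 cells) and Aire-KO mTEClo (7.78%, in 2 batches of 73 and 81 cells) came from males of 5 weeks, and the allele is not detailed in the sources used here. Newborn WT mice of 1 day and unrecorded sex gave mTEChi (8.64% of cells), mTEClo (6.26%) and cTECs (7.02%), each in 5 batches of at most 40 cells. Mice are not numbered, so cells of a group with the same age and sex were summed into 1 pool, which may hold several mice. Adult WT mTEChi formed pools 1 (4-week males, 71.6% of the group in 6 batches), 2 (4-week females, 82 cells), 3 (5-week males, 12 cells) and 4 (6-week males, 82 cells). Adult WT mTEClo formed pools 1 (4 weeks, 66 cells), 2 (5 weeks, 74 cells) and 3 (8 weeks, 60.8% of the group in 3 batches), and each of the other groups was a single pool.

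Cells held 203010 to 1823784 counted reads (median 692880). Aire stood at 1109.7 to 1844.6 counts per 1000000 counted reads (CPM) in the 4 WT mTEChi pools and at 26.1 CPM in Aire-KO mTEChi, and at 26.1 to 39.5 CPM in WT mTEClo against 0.153 CPM in Aire-KO mTEClo. The cTEC markers (Enpep, Psmb11, Prss16, Ly75 and Ccl25) summed to 4986 and 5010 CPM in adult and newborn cTECs, to 110.8 to 606.1 CPM in adult mTEC pools and to 1826.6 CPM in newborn mTEClo. Thymocyte markers summed to between 28.7 and 397.9 CPM and mesenchymal and endothelial markers to between 52.8 and 470.8 CPM over all pools. Adult WT mTEClo pool 3, the 8-week pool, stood apart from pools 1 and 2 in Trp63, an epithelial progenitor factor (837.3 against 219.8 and 234.1 CPM), and in Pou2f3, the tuft-cell factor (31.6 against 342.5 and 309.6 CPM). Fold changes of the 9 factors between adult WT mTEChi and mTEClo are given with and without it.

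Of the 9 factors, all but Foxj1 matched an entry of the promoter table. Ccno, Mcidas and Deup1, 3 ciliated-programme genes whose levels followed Trp73 from cell to cell (below), are shown because each holds an RFX core motif (the second start listed for Deup1 has none), and Foxa1 because it was the only one of the 8 factors with a promoter entry that held a forkhead site. Cdc20b, whose level followed Trp73 most closely, holds neither motif and is not shown. RFX proteins act beside Foxj1 at ciliary genes, and Fox proteins bind forkhead sites. Each line is the 250 bases before the start of the gene, 5′ to 3′ on its own strand (RefSeq, GRCm38.p6). Capitals mark the RFX core motif (GTTGCC or its reverse complement GGCAAC) or the forkhead site (TGTTTAC or its reverse complement GTAAACA).
Ccno (chr13:112987552-112987801, plus strand): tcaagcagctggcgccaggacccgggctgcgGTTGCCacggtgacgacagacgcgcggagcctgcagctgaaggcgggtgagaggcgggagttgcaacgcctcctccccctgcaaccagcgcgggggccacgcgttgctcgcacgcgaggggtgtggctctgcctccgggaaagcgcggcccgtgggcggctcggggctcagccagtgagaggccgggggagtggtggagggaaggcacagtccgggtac
Mcidas (chr13:112993618-112993867, plus strand): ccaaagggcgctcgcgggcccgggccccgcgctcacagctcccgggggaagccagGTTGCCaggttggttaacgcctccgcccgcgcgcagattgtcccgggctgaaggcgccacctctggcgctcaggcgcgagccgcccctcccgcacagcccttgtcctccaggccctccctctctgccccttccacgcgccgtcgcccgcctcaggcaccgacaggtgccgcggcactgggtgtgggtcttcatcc
Deup1 (chr9:15627847-15628096, minus strand): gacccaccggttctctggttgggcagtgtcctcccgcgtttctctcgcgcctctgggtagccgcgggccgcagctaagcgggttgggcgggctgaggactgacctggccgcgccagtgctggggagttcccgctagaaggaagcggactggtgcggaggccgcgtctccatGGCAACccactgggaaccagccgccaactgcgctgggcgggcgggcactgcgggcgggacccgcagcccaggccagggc
Foxa1 (chr12:57546112-57546361, minus strand): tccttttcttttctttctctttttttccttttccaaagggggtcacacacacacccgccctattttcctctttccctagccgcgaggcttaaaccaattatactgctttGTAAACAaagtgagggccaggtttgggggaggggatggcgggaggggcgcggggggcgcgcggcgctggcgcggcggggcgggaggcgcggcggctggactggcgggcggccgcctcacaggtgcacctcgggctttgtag

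On both strands, the RFX core motif stood in 15 of 35 ciliated-list genes with a promoter (42.9%) and in 11.8% of all 27025 genes of the table, and in 0 of 8 of the factors. The forkhead site stood in 3 of 35 ciliated-list genes (8.57%), in 1 of 8 factors and in 3.54% of all genes. In the other lists it stood in 2 of 15 ionocyte-list, 0 of 14 secretory-list, 1 of 19 skin-list and 0 of 23 acinar-list genes. The Grainyhead palindrome AACCGGTT stood in 0 of 19 skin-list genes and in 0.137% of all genes. These are matches of letters within 250 bases, and no binding was measured.

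**Figure D1:**
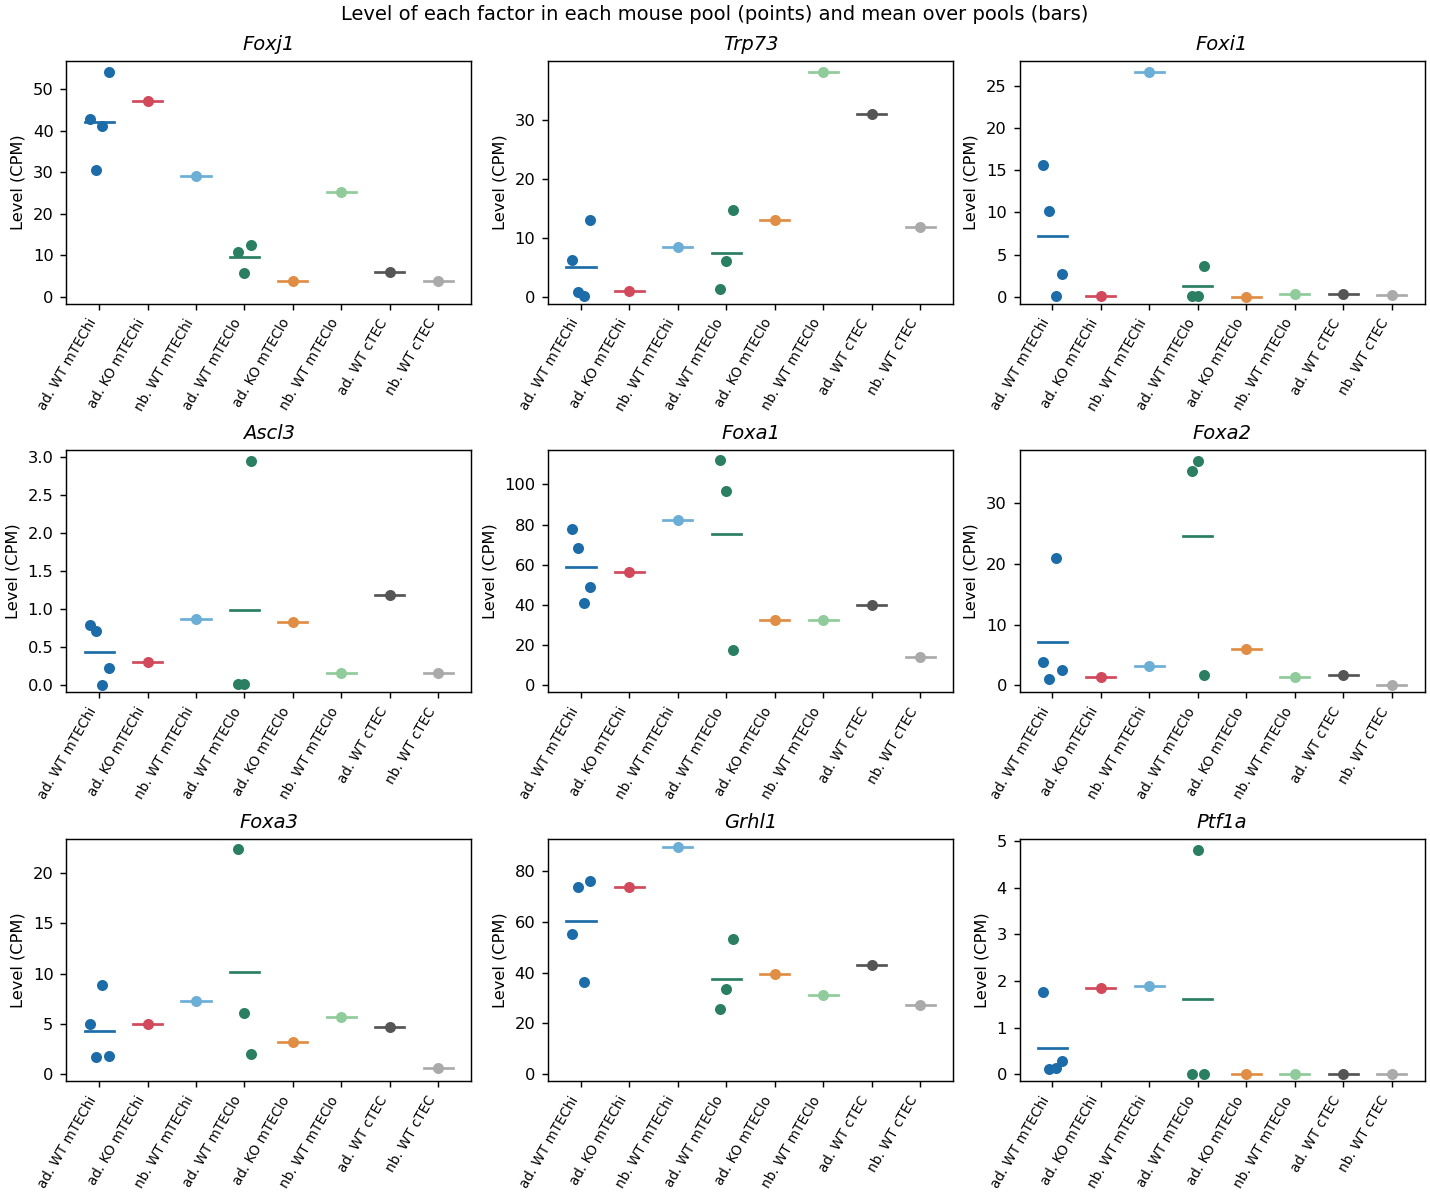
Level of each factor in CPM of the summed counts (y axis, linear, a different range in each panel) for the 8 groups (x axis, ad. adult, nb. newborn, KO Aire-KO). Points are pools and bars are means over pools; Foxj1 lay at 30.5 to 54.2 CPM in adult WT mTEChi and at 5.74 to 12.5 CPM in adult WT mTEClo, whereas the other 8 factors overlapped between these groups.

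Per kilobase of exon, the factors of adult WT mTEChi spanned a wide range. Foxa1 had the highest mean level (17.7 ± 5.12 CPM per kb, SD, n = 4 pools), followed by Foxj1 (16.1 ± 3.71) and Grhl1 (10.9 ± 3.34), and the ranges of neighbours in this order overlapped between pools. Foxi1 (3.04 ± 2.99), Foxa2 (3.01 ± 3.94), Foxa3 (2.13 ± 1.67), Trp73 (0.913 ± 1.08), Ascl3 (0.622 ± 0.547) and Ptf1a (0.376 ± 0.533 CPM per kb) followed, each again overlapping its neighbours, and the lowest Grhl1 pool (6.57) lay just under the highest Foxi1 pool (6.61 CPM per kb). In adult WT mTEClo the order began with Foxa1 (22.7 ± 15.2 CPM per kb, n = 3 pools), Foxa2 (10.4 ± 8.41) and Grhl1 (6.77 ± 2.58), and ended with Ptf1a (1.07 ± 1.84) and Foxi1 (0.531 ± 0.886).

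The values below are of a pair of kinds. The level is the CPM of the summed counts of a pool. The share of cells is the percent of cells with at least 1 read of the factor after every cell was thinned to 200000 reads, so that depth is equal, and a cell is called high where it then keeps at least 10 reads (50 CPM). Levels were tested over the 11 mTEC pools with the quasi-likelihood test of edgeR, and a call needed 2-fold change or more with a p, adjusted after Benjamini and Hochberg, below 0.05.

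Of the 9 factors 1 was called higher in adult WT mTEChi than in mTEClo (Foxj1) and 0 lower, beside 7.54% and 4.13% of the genes tested. DESeq2 called 15.1% of genes higher and 5.83% lower, and edgeR with experimental batches as units 25.1% and 9.25%; among the factors both called Foxj1 alone. Over all genes the log2 fold changes of mTEChi against mTEClo had a median of 0.30, so that 0 is not the middle of this comparison. No experimental batch held both groups of any comparison, so that batch and group cannot be told apart.

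In the comparisons with 1 pool on one side edgeR called 0% of genes in either direction and none of the 9 factors. For Aire-KO against WT mTEChi, 1.18% of genes were higher and 3.19% lower with an unadjusted p below 0.05, DESeq2 called 0.0992% and 1.55%, and edgeR over batches 1.11% and 3.53%. For Aire-KO against WT mTEClo these shares were 2.14% and 1.41%, 0.188% and 0.384%, and 0.0542% and 0.0163%. For newborn against adult mTEChi they were 1.51% and 0.503%, 0.0269% and 0.0537%, and 0.713% and 0.539%, and for mTEClo 5.62% and 4.31%, 1.65% and 1.95%, and 6.2% and 7.81%. Among the factors, DESeq2 called Ptf1a lower in Aire-KO mTEClo and newborn mTEClo, where no read was found, and the batch fit called Foxa2 lower in newborn mTEClo. Adult WT mTEClo pools 1 and 3 also held no Ptf1a read. In pool 2 the 2 cells with most reads held 99.7% of the Ptf1a reads, so no loss of Ptf1a is shown. The median over all genes was -0.16 in Aire-KO against WT mTEChi and 0 in mTEClo.

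Foxj1 (ENSMUSG00000034227, chromosome 11, 116330704 to 116335399, minus strand, GRCm38) is the forkhead factor that switches on the genes of motile cilia. Its level in adult WT mTEChi was 42.8, 30.5, 41.2 and 54.2 CPM in pools 1 to 4, and in adult WT mTEClo 10.7, 5.74 and 12.5 CPM in pools 1 to 3. Every mTEChi pool lay above every mTEClo pool, as was the case for 16.1% of all genes tested (9.85% lay the other way round). The log2 fold change was 1.90 (SE 0.378, adjusted p = 0.0182, edgeR quasi-likelihood test), 1.60 above the median of all genes, and the adjusted p was 0.0565 without mTEClo pool 1 (log2 fold change 1.93) and 0.0130 without pool 3 (2.23). The share of cells with Foxj1 was 64.5% ± 4.63 (SD, n = 4 pools) in mTEChi and 19.7%, 16.2% and 25.8% in the mTEClo pools.

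In Aire-KO mTEChi Foxj1 stood at 47.2 CPM and in 67.5% of cells, both within the range of the WT pools (log2 fold change 0.29, SE 0.510, adjusted p = 0.992, edgeR). In Aire-KO mTEClo it stood at 3.74 CPM, below the 3 WT pools as for 13.6% of genes, with a share of 16.9% within their range (log2 fold change -1.37, SE 0.588, p = 0.0459, adjusted p = 1). The difference between the Aire-KO effects in mTEChi and mTEClo was 1.66 on the log2 scale (SE 0.758, adjusted p = 1.0 by the interaction contrast in edgeR). Newborn mTEChi held 29.01 CPM (67.8% of cells) and newborn mTEClo 25.3 CPM (41.9%), above all adult mTEClo pools (log2 fold change 1.28, SE 0.505, p = 0.0332, adjusted p = 0.460, edgeR). In level 34% of genes lay above and 19.1% below all adult mTEClo pools in newborn mTEClo, and by share of cells 43% and 10.5%. For newborn mTEChi these figures were 20.1% and 12.3% in level and 27.5% and 7.42% by share. Adult and newborn cTECs held 5.93 and 3.72 CPM, with Foxj1 in 19.5% and 25.9% of cells, a share like that in adult mTEClo and below that in newborn mTEClo. Foxj1 was thus read in most mTEChi of every age and genotype, and the high cells, 27.1% ± 4.69 (SD, n = 4 pools) of adult WT and 27.5% of Aire-KO mTEChi, were a smaller set.

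Trp73 (ENSMUSG00000029026, chromosome 4, 154056253 to 154140208, minus strand) encodes p73, a p53-family factor needed for multiciliated cells. Its level was 6.26, 0.845, 0.125 and 13.0 CPM in the adult WT mTEChi pools and 1.30, 6.09 and 14.7 CPM in the mTEClo pools. The groups overlapped (log2 fold change -0.80, SE 1.23, adjusted p = 0.670, edgeR), and without mTEClo pool 3 the estimate turned to 0.34 (adjusted p = 0.885). The highest levels were in newborn mTEClo (38.1 CPM, 55.6% of cells) and adult cTECs (31.003 CPM, 39.0%). Newborn cTECs stood at 11.9 CPM, with Trp73 in 42.4% of cells, and newborn mTEChi at 8.48 CPM (10.5%). The share was 6.68% ± 4.72 in adult WT mTEChi and 6.06%, 18.9% and 31.8% in mTEClo pools 1, 2 and 3. Aire-KO mTEChi stood at 1.05 CPM with 3.55% of cells and Aire-KO mTEClo at 13.0 CPM with 27.3% of cells, both within the WT range (adjusted p = 0.968 and 1, edgeR). Of the 29 Trp73-high cells in adult WT mTEClo, 26 were in pool 3.

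Trp73 was therefore spread over cells in which Foxj1 was scarce as well as over cells in which it was high. Of the 14 Trp73-high cells in adult WT mTEChi, 13 were also Foxj1-high, against 3.40 expected from the shares within pools. Of the 3 in Aire-KO mTEChi 1 was, and of the 4 in newborn mTEChi 1. Of the 29 in adult WT mTEClo 3 were, of the 20 in Aire-KO mTEClo 0, of the 15 in adult cTECs 0, and of the 29 in newborn mTEClo 2.

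**Figure D2:**
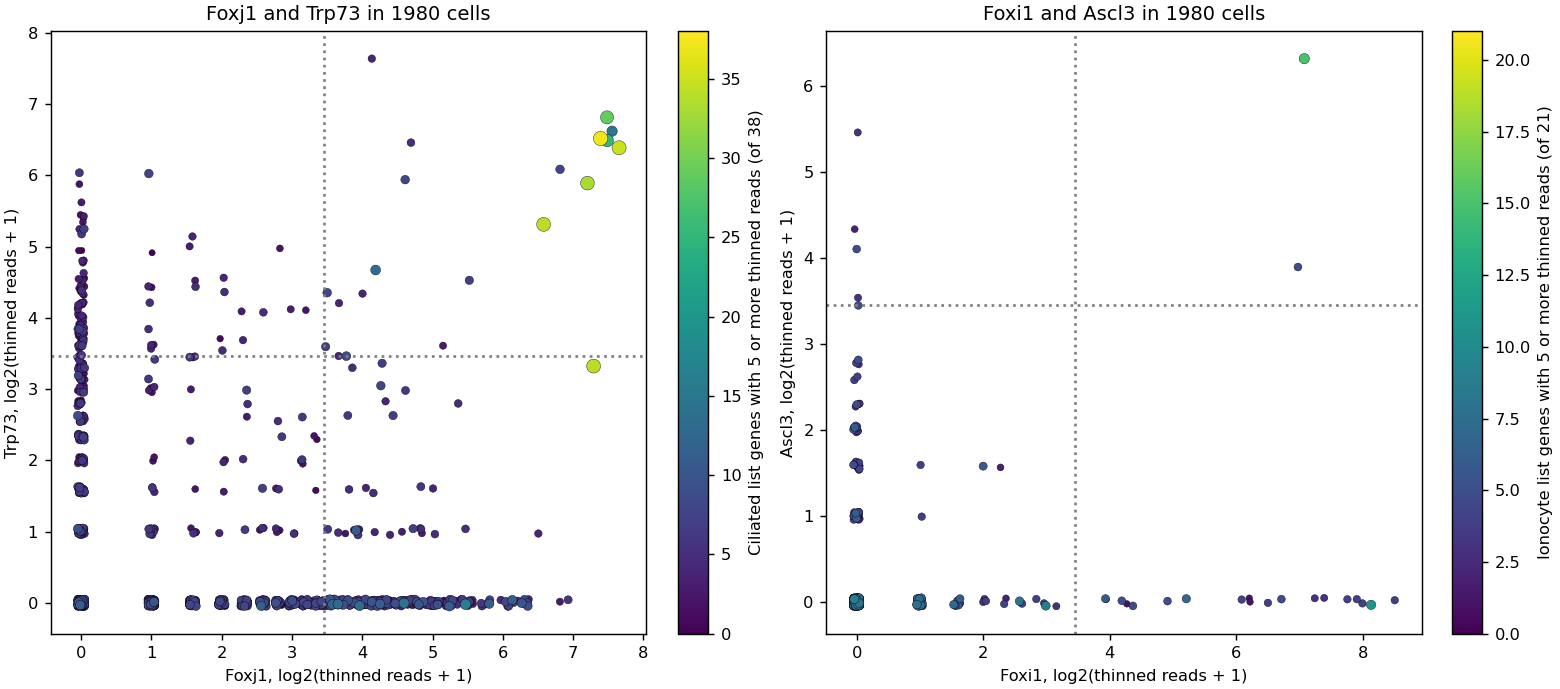
Thinned reads per cell on a log2(reads + 1) scale in all cells, for Foxj1 (x axis) against Trp73 (y axis) on the left and Foxi1 against Ascl3 on the right, coloured and sized by the number of ciliated-list (38) or ionocyte-list (21) genes with 5 or more thinned reads; points carry a small jitter and dotted lines mark 10 reads. The 7 cells with at least 50% of the ciliated list are all high in Foxj1, 6 of them also in Trp73, and only 2 cells are high in both Foxi1 and Ascl3.

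The ciliated list held 38 genes of the axoneme, of basal-body amplification and of their control (among them Dnah5, Dnah9, Hydin, Mcidas, Gmnc, Ccno and Rfx3). In adult WT mTEChi against mTEClo, 3 were called higher (Dnaic2, Gmnc and Foxn4) and 1 lower (Rfx3), beside 7.54% and 4.13% of all genes. The median log2 fold change was 0.60, against 0.30 over all genes. The 3 most expressed did not pass: Dnah9, an axonemal dynein, had 168.8 ± 34.1 against 65.1 ± 30.2 CPM (adjusted p = 0.0518, edgeR), Myb, a regulator of early multiciliated cells, 147.8 ± 67.2 against 87.7 ± 43.6 CPM (adjusted p = 0.336), and Dnah5, another dynein, 60.0 ± 16.7 against 175.8 ± 153.8 CPM (adjusted p = 0.0888). In Aire-KO against WT mTEChi no gene tested was called, so also 0 of the 38. At an unadjusted p under 0.05 (edgeR) 2 were lower, beside 3.19% of all genes. The median was -1.12, against -0.16 over all genes.

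Per cell, a list gene was counted as on at 5 or more thinned reads (25 CPM). The median was 8 ciliated-list genes (range 3 to 37) in the 20 cells high in both Foxj1 and Trp73, 5 (0 to 34) in the 300 cells high in Foxj1 alone, 3 (0 to 8) in the 5.25% of cells high in Trp73 alone and 3 (0 to 11) in the 78.6% high in neither. These medians mix the groups. For both, Foxj1 alone and neither they were 9 (13 cells), 5 and 4 in adult WT mTEChi. In adult WT mTEClo they were 4 (3 cells), 4 and 3, and in newborn mTEClo 22.5 (2 cells), 5 and 3. They were 4 (1 cell), 4 and 4 in newborn mTEChi and 3 (1 cell), 4 and 3 in Aire-KO mTEChi. At least 50% of the list was on in 7 cells (0.354% of all): 5 of 620 adult WT mTEChi (0.806%, exact 95% interval 0.262 to 1.87%), 1 adult WT mTEClo (0.280%), in pool 3, and 1 newborn mTEClo (0.806%). None was found in Aire-KO mTEChi or Aire-KO mTEClo, which allows shares of up to 0.888% and 1.95%, so that a difference from WT was not detectable with these numbers of cells.

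These 7 cells carried 25 to 37 of the 38 genes, 493.8 to 996.6 CPM of Foxj1 and 60.1 to 473.03 CPM of Trp73. The cell with the most list genes, a newborn mTEClo, had 865.3 CPM of Foxj1, 449.8 CPM of Trp73 and 86.7 CPM of Foxa2. All 7 held reads of Foxa2 (2.27 to 336.2 CPM) and at most 1 read of Foxi1, and none of Ascl3 or Ptf1a. Their Aire level ran from 16.1 to 426.7 CPM. The other 14 cells high in both factors had 3 to 15 list genes, 1 of them in Aire-KO mTEChi with 3 list genes, 170.5 CPM of Foxj1 and 58.7 CPM of Trp73. The Foxa2 reads were noted after the values were seen.

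Foxi1 (ENSMUSG00000047861, chromosome 11, 34204338 to 34208089, minus strand) directs ionocytes, the cells that carry the chloride channel Cftr and the vacuolar proton pump. Its level was 15.6, 10.2, 0.125 and 2.74 CPM in the adult WT mTEChi pools and 0.0990 CPM in Aire-KO mTEChi. The Aire-KO pool was below all 4 WT pools, as for 17.5% of genes tested, although the 12-cell pool 3 lay close to it. The log2 fold change was -6.05 (SE 3.56, adjusted p = 0.925, edgeR), or -5.89 after the median of all genes was subtracted. The estimate was -6.07 in DESeq2 (adjusted p = 0.180) and -6.43 (SE 1.99, adjusted p = 0.0503) in edgeR with experimental batches as units, a fit that treats cells of the same mice as separate.

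The share of cells with Foxi1 was 7.66%, 3.66%, 8.33% and 6.10% in WT mTEChi pools 1 to 4 and 1.18% in Aire-KO mTEChi (4 cells, exact 95% interval 0.323 to 3.00%), below the 4 WT pools as for 16.8% of genes. By experimental batch the Aire-KO shares were 0%, 1.19%, 0% and 3.49%, and the 10 WT units of pool and batch ran from 3.66 to 20.0%. All Aire-KO batches lay below all WT units for 1.15% of genes and above them for 0.881%, and Foxi1 was the only one of the 9 factors in either set. The gap is narrow, as the highest Aire-KO batch had 3 of 86 cells with Foxi1 and the lowest WT unit 3 of 82. The WT value of 20.0% was 1 of 5 cells. Foxi1-high cells were 17 of 620 in WT (14, 2, 0 and 1 by pool) and 0 in Aire-KO, which allows a share of up to 0.888%. The WT pool of the same age and sex as the Aire-KO mice was pool 3, with Foxi1 in 1 of its 12 cells.

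In adult WT mTEClo Foxi1 stood at 0.0426, 0.05 and 3.66 CPM and in 0%, 0% and 5.07% of cells, the last value being that of pool 3. In Aire-KO mTEClo no read was found. With 3 reads as the limit of a count of 0, the level over all adult WT mTEClo cells was at least 58.1-fold higher, and over pools 1 and 2 alone at least 1.43-fold. In mTEClo pool 3 the 2 cells with most reads held 95.4% of the Foxi1 reads, and its other cells stood at 0.171 CPM. The mTEChi pools overlapped the mTEClo pools (log2 fold change 2.18, SE 1.74, adjusted p = 0.393, edgeR), and without mTEClo pool 3 the estimate was 7.12 (adjusted p = 0.0546). Newborn mTEChi had the highest level, 26.6 CPM in 12.9% of cells (log2 fold change against adult 1.92, SE 2.11, adjusted p = 1, edgeR), and newborn mTEClo 0.300 CPM in 1.61%. In newborn mTEChi 2 cells held 95.9% of the Foxi1 reads, and the other cells stood at 1.10 CPM. In adult WT mTEChi the 2 cells with most reads held 31.4% of them in pool 1, leaving 10.7 CPM, and 98.8% and 97.4% in pools 2 and 4. Adult and newborn cTECs, sorted as another cell type, held Foxi1 in 2.60% and 3.60% of cells at 0.261 and 0.227 CPM. The share in Aire-KO mTEChi was not above this background. Without thinning the shares were 10.3% ± 3.65 in WT and 1.18% in Aire-KO mTEChi. At 2 or 10 thinned reads, or 5 reads without thinning, the Aire-KO share lay within the WT pools.

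Ascl3 (ENSMUSG00000035951, chromosome 7, 109727465 to 109731726, minus strand) is a basic helix-loop-helix factor of ionocytes and of salivary duct cells. Its level was 0.791, 0.721, 0 and 0.230 CPM in the adult WT mTEChi pools, 0.307 CPM in Aire-KO mTEChi, 0.0213, 0.0167 and 2.95 CPM in adult WT mTEClo and 0.839 CPM in Aire-KO mTEClo. Between adult groups the pools overlapped, and newborn mTEChi (0.868 CPM) lay above all adult mTEChi pools as for 20.1% of genes. The sign of mTEChi against mTEClo (log2 fold change -1.45, SE 1.64, adjusted p = 0.555, edgeR) turned to 4.42 without mTEClo pool 3 (adjusted p = 0.112). In that pool 2 cells held 89.8% of the Ascl3 reads, and its other cells stood at 0.305 CPM. The largest share was in adult cTECs (16.9% of cells, 1.18 CPM), against 2.31% ± 2.15 in adult WT mTEChi, 2.66% in Aire-KO mTEChi and 5.26% in newborn mTEChi. The Ascl3 share of mTEChi was thus not above that of adult cTECs, while newborn cTECs held Ascl3 in 1.44% of cells at 0.168 CPM.

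Of the 21 ionocyte-list genes (pump subunits, chloride channels and transporters), 5 were called higher in adult WT mTEChi than in mTEClo and 2 lower, with a median log2 fold change of 1.65. Atp6v0a4, a proton-pump subunit, rose by 4.12 and Slc26a4, the anion exchanger pendrin, by 2.71 on the log2 scale (adjusted p = 0.0319 and 0.0341, edgeR), and Slc12a2, a sodium-potassium-chloride cotransporter, fell by 1.63 (adjusted p = 0.0130). Tfcp2l1, a factor of kidney and duct epithelium, had 240.4 ± 91.2 against 153.7 ± 45.2 CPM (adjusted p = 0.346), and Hepacam2 22.8 ± 18.7 against 225.3 ± 180.7 CPM (adjusted p = 0.0526). In Aire-KO against WT mTEChi no gene tested was called, so also 0 of the 21, and the median was -1.38 against -0.16 over all genes. Foxi2 and Foxi3, the close relatives of Foxi1, stood at 9.11 ± 13.5 and 1.36 ± 1.97 CPM in WT mTEChi and at 0.0239 and 0.0137 CPM in Aire-KO mTEChi. Neither was called, and for both the SD between WT pools exceeded the mean, so no loss is shown.

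Cells high in Foxi1 alone (19 over all groups) had a median of 4 ionocyte-list genes on (range 1 to 11) and the 98.7% of cells high in neither factor a median of 3 (0 to 9). Only 2 cells were high in both factors. An adult WT mTEClo cell of pool 3 had 631.6 CPM of Foxi1, 465.04 CPM of Ascl3, 15 of the 21 list genes and an Aire level of 18.1 CPM, and an adult WT mTEChi cell had 557.1 and 74.3 CPM with 5 list genes. The other cell with at least 50% of the list was a newborn mTEChi cell with 1407.98 CPM of Foxi1, no read of Ascl3, 763.6 CPM of Grhl1, 11 ionocyte-list genes and 19 of 28 skin-list genes. Most Foxi1-high cells therefore held Foxi1 without the list, and the adult WT mTEChi cell with the highest level (1294.9 CPM) had 4 list genes on and Aire at 1727.4 CPM.

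Foxa1 (ENSMUSG00000035451, chromosome 12, 57540628 to 57546916, minus strand), Foxa2 (ENSMUSG00000037025, chromosome 2, 148042877 to 148046969, minus strand) and Foxa3 (ENSMUSG00000040891, chromosome 7, 19013284 to 19023538, minus strand) are pioneer forkhead factors of endoderm, used in airway, gut, liver and pancreas and in goblet and other secretory cells. Foxa1 stood at 77.7, 68.6, 41.0 and 48.8 CPM in the adult WT mTEChi pools, 56.6 CPM in Aire-KO mTEChi, 112.4, 96.5 and 17.8 CPM in adult WT mTEClo and 32.4 CPM in Aire-KO mTEClo. The mTEClo pools 1 and 2 were above and pool 3 below all mTEChi pools (log2 fold change -0.49, SE 0.509, adjusted p = 0.513, edgeR), and without pool 3 the estimate was -0.95 (SE 0.275, adjusted p = 0.0683). By share of cells the sorts did not overlap, with 66.6% ± 2.37 in mTEChi and 60.6%, 59.5% and 26.3% in the mTEClo pools, as for 14.9% of genes (6.44% lay the other way round). With at least 2 thinned reads the shares overlapped (50.0 to 58.8% in mTEChi, 12.4 to 59.1% in mTEClo), as they did with at least 10.

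In Aire-KO mTEChi the share of cells with Foxa1 was 55.3% against 63.4 to 69.1% in the WT pools, while its level lay within theirs (log2 fold change 0.06, SE 0.745, adjusted p = 1, edgeR). Of all genes 16.8% lay below the WT pools by share. The Aire-KO batches ran from 41.7 to 71.6% and the WT units from 53.3 to 87.5%, so that they overlapped. In Aire-KO mTEClo the share was 17.5%, below all WT pools as for 15.2% of genes. Newborn mTEChi had 82.1 CPM in 77.2% of cells and newborn mTEClo 32.5 CPM in 25.0%, and adult cTECs held 40.3 CPM in 23.4% of cells.

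Foxa2 was scarce in most mTEChi and common in mTEClo pools 1 and 2. Its level was 3.84, 1.05, 21.0 and 2.61 CPM in adult WT mTEChi and 35.4, 36.9 and 1.65 CPM in adult WT mTEClo. The high mTEChi value was that of the 12-cell pool 3 and the low mTEClo value that of the 8-week pool 3 (log2 fold change -1.95, SE 1.15, adjusted p = 0.254, edgeR), and without mTEClo pool 3 the estimate was -2.50 (adjusted p = 0.146). The shares were 9.58% ± 5.81 in mTEChi and 51.5%, 47.3% and 7.83% in mTEClo. Aire-KO mTEClo (6.03 CPM, 13.0%) lay between the WT pools, and Aire-KO mTEChi (1.46 CPM, 3.85%) within the WT range (adjusted p = 0.961 for mTEChi, edgeR). Newborn mTEClo held 1.39 CPM in 3.23% of cells, below all adult mTEClo pools as for 19.1% of genes in level and 10.5% by share (log2 fold change -4.16, SE 2.26, adjusted p = 0.590, edgeR).

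Foxa3 stood at 4.96, 1.67, 8.89 and 1.82 CPM in adult WT mTEChi, 4.97 CPM in Aire-KO mTEChi, 22.3, 6.09 and 2.03 CPM in adult WT mTEClo and 3.17 CPM in Aire-KO mTEClo. The adult WT sorts overlapped (log2 fold change -1.39, SE 0.864, adjusted p = 0.277, edgeR), also without mTEClo pool 3 (-1.86, adjusted p = 0.170). Newborn mTEChi stood at 7.27 CPM, newborn mTEClo at 5.67 CPM, adult cTECs at 4.64 CPM and newborn cTECs, the lowest, at 0.583 CPM. Its share was 12.2% ± 3.14 in adult WT mTEChi and 16.9% in Aire-KO mTEChi, above the 4 WT pools as for 13.8% of genes, with 16.0 to 17.9% over the Aire-KO batches and 4.17 to 21.9% over the WT units. Newborn mTEChi held it in 20.5% of cells, above all adult mTEChi pools as for 27.5% of genes, and adult cTECs in 15.6%.

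Of 25 secretory-list genes (mucins, secretoglobins, trefoil factors and regulators such as Spdef), 5 were called higher in adult WT mTEChi than in mTEClo and 0 lower. Of all genes 7.54% were called higher and 4.13% lower. The median was 1.77, against 0.30 over all genes. Reg3g, an antibacterial lectin, had 187.99 ± 36.8 against 46.3 ± 14.3 CPM (log2 fold change 1.85, adjusted p = 0.00535, edgeR), and Muc5ac and Muc16 rose by 5.59 and 6.25 on the log2 scale (adjusted p = 0.0400 and 0.0211). Fcgbp, a mucus protein, had 4628 ± 1059.7 against 3181 ± 2944 CPM (adjusted p = 0.766), and Xbp1, a factor of the secretory pathway, 107.8 ± 5.37 against 137.7 ± 26.4 CPM (adjusted p = 0.0541). In Aire-KO against WT mTEChi no gene tested was called, so also 0 of the 25. At an unadjusted p under 0.05 (edgeR) 4 were lower, beside 3.19% of all genes. The median was -2.28, against -0.16 over all genes.

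Cells high in Foxa1 and Foxa3 (20) had a median of 7.5 list genes on (range 4 to 16), those high in Foxa1 alone (21.8% of cells) 5 (1 to 16), those high in Foxa3 alone (12) 5 (2 to 13), those high in Foxa2 alone (31) 3 (1 to 7) and those high in none (73.3%) 4 (1 to 13). These medians mix the groups. For cells high in Foxa2 alone against none they were 6 and 5 in adult WT mTEChi, and 3 and 3 in adult WT mTEClo. In Aire-KO mTEClo they were 3 and 3, and in newborn mTEChi 3.5 (2 cells) and 6. At least 50% of the list was on in 20 cells, 16 of them high in a Foxa factor. They were 6 adult WT mTEChi, 1 adult WT mTEClo, 6 newborn mTEChi, 4 newborn mTEClo, 2 adult cTECs and 1 newborn cTEC. None was an Aire-KO cell, which allows up to 0.888% of mTEChi and 1.95% of mTEClo, against 0.968% (exact 95% interval 0.356 to 2.09%) in adult WT mTEChi.

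**Figure D3:**
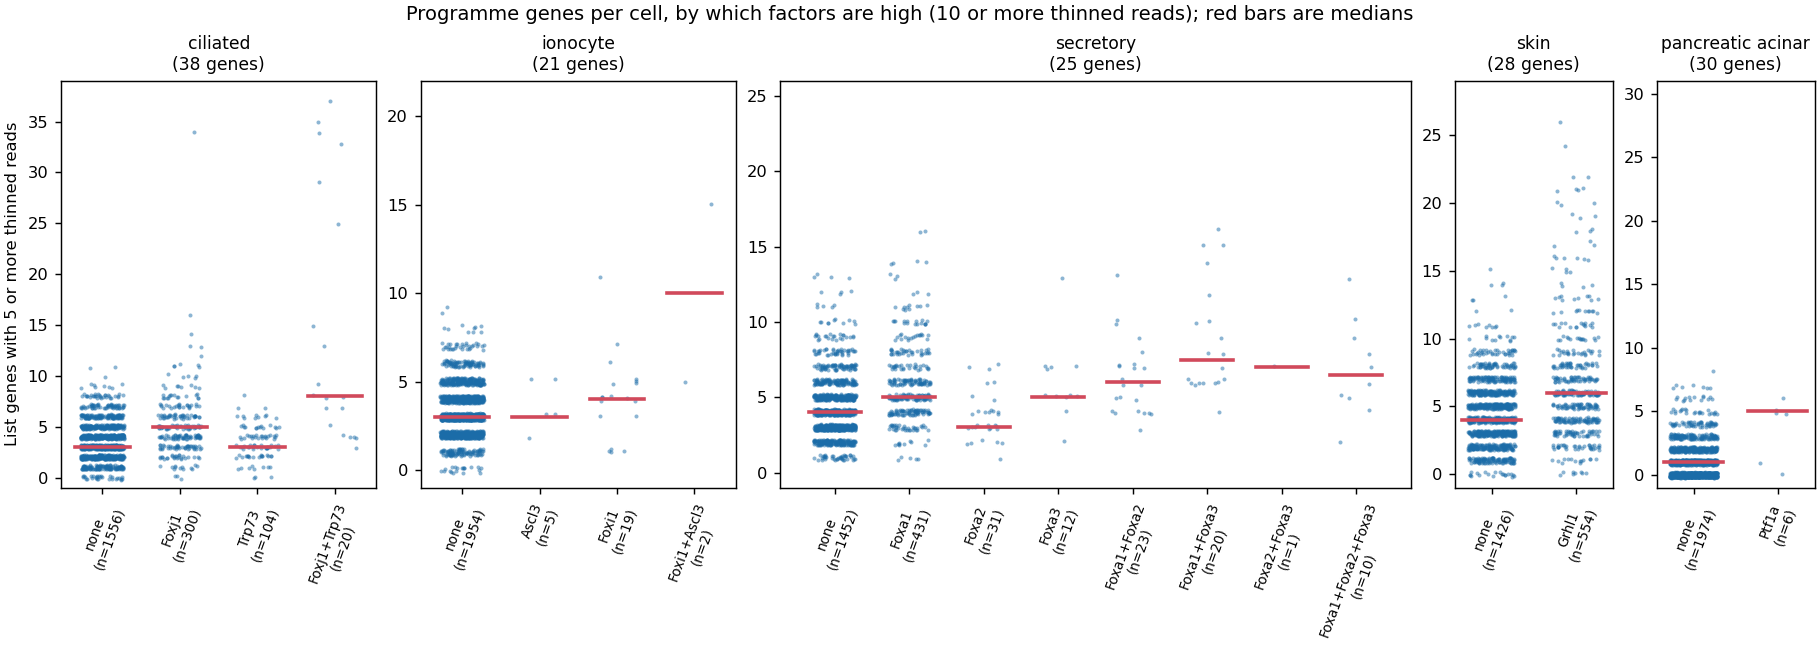
Number of list genes with 5 or more thinned reads per cell (y axis, with a small vertical jitter), for cells grouped by which factors are high (x axis, with the number of cells), in the 5 lists over all cells; points are cells and red bars medians. The cell with the most ciliated-list genes (37 of 38) is in the Foxj1 and Trp73 column, the cell with the most skin-list genes (26 of 28) in the Grhl1 column, and no cell reaches 50% of the pancreatic acinar list.

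Grhl1 (ENSMUSG00000020656, chromosome 12, 24572283 to 24617391, plus strand) is a Grainyhead factor of the epidermis that controls desmosomal cadherins. It stood at 55.1, 73.8, 36.4 and 76.1 CPM in adult WT mTEChi and 25.5, 33.6 and 53.3 CPM in adult WT mTEClo, with overlap between the sorts (log2 fold change 0.46, SE 0.374, adjusted p = 0.402, edgeR, and 0.91, adjusted p = 0.120, without mTEClo pool 3). Aire-KO mTEChi held 73.8 CPM and Aire-KO mTEClo 39.5 CPM, both within the WT range (adjusted p = 0.985 and 1). By share of cells the pools of the WT sorts did not overlap, with 79.1% ± 8.78 (SD, n = 4 pools) in mTEChi and 57.6%, 47.3% and 63.1% in the mTEClo pools, as for 14.9% of genes. By units of pool and batch they overlapped (58.7 to 91.7% in mTEChi, 47.3 to 70.6% in mTEClo). The share in Aire-KO mTEChi was 57.99%, below the WT pools (71.2 to 91.7%) as for 16.8% of genes. The shares of its 4 batches (52.4 to 65.1%) overlapped those of the WT units (58.7 to 91.7%). Grhl1-high cells were 27.8% in Aire-KO and 33.7% ± 4.00 (SD, n = 4 pools, 28.4 to 37.8%) in WT. Grhl1 was also read in 81.8% of adult cTECs and 71.2% of newborn cTECs. It was the most widespread of the 9 factors in adult WT mTEChi, newborn mTEChi (82.5%) and both cTEC groups.

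Of 28 skin-list genes, 5 were called higher in adult WT mTEChi than in mTEClo (Dsg1a, Dsg1b, Grhl3, Klk5 and Sprr1a) and 0 lower. Of all genes 7.54% were called higher and 4.13% lower. The median was 1.31, against 0.30 over all genes. Dsg1a, a desmosomal cadherin, had 237.8 ± 14.2 against 98.9 ± 22.4 CPM (log2 fold change 1.06, adjusted p = 0.0197, edgeR), Pkp1, a plakophilin of the desmosome, 260.6 ± 74.3 against 409.05 ± 128.8 CPM (adjusted p = 0.0986) and Spink5, a protease inhibitor, 107.04 ± 74.96 against 85.2 ± 56.3 CPM (adjusted p = 0.874). In Aire-KO against WT mTEChi no gene tested was called, so also 0 of the 28, and the median was -0.06, against -0.16 over all genes. In the same family, Grhl3 rose by 1.82 and Grhl2 fell by 1.34 on the log2 scale between adult WT mTEChi and mTEClo (adjusted p = 0.00958 and 0.0173), whereas Grhl1 was not called.

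The Grhl1-high cells (27.98% of all) had a median of 6 skin-list genes on (range 0 to 26) and the other cells a median of 4 (0 to 15). Within groups the 2 medians were 7 and 6 in adult WT and newborn mTEChi, and 6 and 5 in Aire-KO mTEChi. They were 4 and 3 in adult WT and Aire-KO mTEClo, 7 and 3 in newborn mTEClo and 2 and 2 in both cTEC groups. At least 50% of the list was on in 38 cells, of which 34 were Grhl1-high with 140.6 to 1857.3 CPM of Grhl1. They were present with and without Aire: 15 of 620 adult WT mTEChi (2.42%, exact 95% interval 1.36 to 3.96%), 6 Aire-KO mTEChi (1.78%, 0.654 to 3.82%), 4 adult WT mTEClo, 10 newborn mTEChi (5.85%), 2 newborn mTEClo and 1 newborn cTEC. The intervals of WT and Aire-KO mTEChi overlap, and cover counting error only.

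Ptf1a (ENSMUSG00000026735, chromosome 2, 19445663 to 19447501, plus strand) is the basic helix-loop-helix factor of pancreatic acinar cells. Its level was 1.77, 0.103, 0.125 and 0.273 CPM in adult WT mTEChi, 1.86 CPM in Aire-KO mTEChi, 0, 4.82 and 0 CPM in adult WT mTEClo and 1.89 CPM in newborn mTEChi. No read was found in Aire-KO mTEClo, newborn mTEClo or either cTEC group. The Aire-KO mTEChi value lay above all 4 WT pools, as for 16.5% of genes, next to 1.77 CPM in pool 1 (log2 fold change 1.77, SE 2.58, adjusted p = 0.986, edgeR). Between adult WT mTEChi and mTEClo the pools overlapped (log2 fold change -1.56, adjusted p = 0.598, edgeR, and -2.14, adjusted p = 0.427, without mTEClo pool 3). The share was 0.924% ± 1.18 in WT and 1.48% in Aire-KO mTEChi.

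The Ptf1a reads came from few cells. Only 6 cells were Ptf1a-high, 2 each in adult WT and Aire-KO mTEChi and 1 each in adult WT mTEClo and newborn mTEChi, with 155.6 to 781.6 CPM. Of these 6, 5 also held 234.9 to 728.1 CPM of Foxa1 and 3 held 182.4 to 233.5 CPM of Foxa2, a pattern noted after the values were seen. They had 0 to 6 of the 30 acinar-list genes on (median 5), and the other cells 0 to 8 (median 1), so no cell reached 50% of that list. Both Aire-KO cells had 5 list genes on and no Aire read. Over the pools, 3 acinar-list genes were called higher in adult WT mTEChi than in mTEClo (Cela3b, an elastase, by 7.82, Clps, colipase, by 4.36 and Try5, a trypsin whose reads may be shared with its paralogs, by 9.82 on the log2 scale) and 1 lower (Gp2 fell by 2.18). Of all genes 7.54% were called higher and 4.13% lower. The list median was 2.82, against 0.30 over all genes. Klk1, a kallikrein, and Gata4, an endodermal factor, had 29.3 ± 22.1 and 36.1 ± 22.8 CPM in mTEChi and 31.1 ± 36.5 and 4.46 ± 5.58 CPM in mTEClo (adjusted p = 0.878 and 0.0662, edgeR). In Aire-KO against WT mTEChi no gene tested was called, so also 0 of the 30. At an unadjusted p under 0.05 (edgeR) 5 were lower, beside 3.19% of all genes. The median was -3.17, against -0.16 over all genes.

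**Figure D4:**
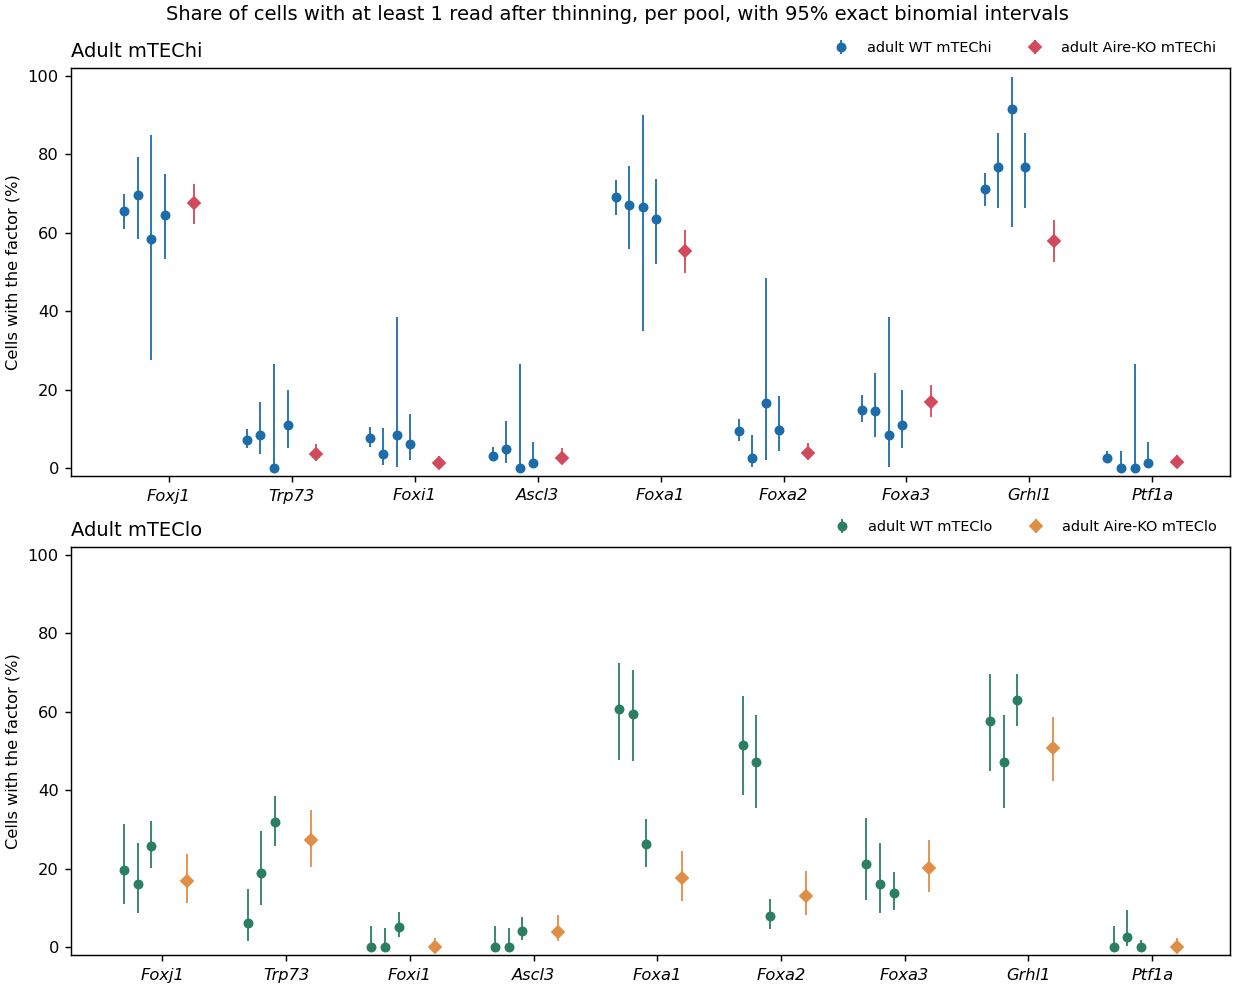
Share of cells with at least 1 read of each factor after thinning (y axis, percent) in each adult mTEChi pool (top) and mTEClo pool (bottom), WT as circles in the order of the pools and Aire-KO as diamonds; lines are exact 95% binomial intervals, which cover counting error only. Foxi1 (1.18%), Foxa1 (55.3%) and Grhl1 (57.99%) in Aire-KO mTEChi lie below all 4 WT pools and Foxa3 (16.9%) above them.

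In shares of cells, 4 of the 9 factors in Aire-KO mTEChi lay outside the 4 WT pools, Foxi1, Foxa1 and Grhl1 below and Foxa3 above. Of all genes tested 16.8% lay below and 13.8% above. In Aire-KO mTEClo 1 of 9 lay outside (Foxa1 below, against 15.2% of genes below and 20.9% above). Under other read thresholds, draws and left-out pools the number in Aire-KO mTEChi ran from 3 to 6. Foxa3 lay within the WT pools with another random draw, without thinning at 1 read and at 10 thinned reads, and Foxa1 lay within them at 2 and at 10 thinned reads. Grhl1 lay below them in each setting run.

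For co-expression, the 36 pairs of factors were described in adult WT mTEChi by the number of cells with both and the number expected from their shares within each pool. A pair was counted as together at 5 or more cells and at least 2 times the expectation, and as apart at an expectation of 5 or more with at most 0.5 of it found. Foxj1, Foxa1 and Grhl1 were each read in most cells of every pool, so at 1 read no pair with them could be together. Pairs of rare factors, with an expectation under 5, could not be apart. With at least 1 thinned read, 3 pairs were together and 0 apart: Trp73 with Foxa2 in 9 cells against 4.08 expected, Foxi1 with Foxa2 in 10 against 3.94, and Foxa2 with Ptf1a in 6 against 1.14. These 3 pairs rest on few cells of pool 1, without which 0 pairs were together. Among high cells the only pair together was Foxj1 with Trp73.

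Among the 6 mTEC groups examined, pairs that were apart were found in Aire-KO mTEClo alone, where Trp73 and Foxa1 were read together in 3 cells against 7.36 expected and Trp73 and Foxa2 in 2 against 5.45, while Foxa1 and Foxa2 were together in 10 against 3.51. In Aire-KO mTEChi 0 pairs were together or apart. Pairs with Foxj1, Foxa1 or Grhl1, each read in most mTEChi of this group and of newborns, could not be together at 1 read. Among high cells of adult WT mTEClo, Foxa3 was together with Foxa1 (8 cells against 3.57) and with Foxa2 (7 against 2.46), and Foxj1 with Foxa1 (10 against 3.41), whereas Foxa1 and Foxa2 shared 20 cells against 12.6 and did not meet the rule. In newborn mTEClo, Foxa1 was together with Foxa3 (12 cells against 4.5 with at least 1 read) and with Grhl1 (8 against 2.23 among high cells). In newborn mTEChi, Foxa2 was together with Foxa3 (7 cells against 2.87 with at least 1 read) and Foxa1 with Foxa3 (7 against 2.74 among high cells). The numbers are counts of cells that share mice and plates, and no test was made of them.

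Against factors of other mTEC types in adult WT mTEClo, cells high in Insm1, the neuroendocrine factor, were also Foxa1-high in 24 cells against 10.5 expected, Foxa2-high in 16 against 6.91 and Foxa3-high in 10 against 1.93. Cells high in Hnf4a, an enterohepatic factor, were Foxa1-high in 14 against 4.48, Foxa2-high in 8 against 3.05 and Foxa3-high in 1 against 0.715. For the related Hnf4g the numbers were 18 against 8.16, 9 against 5.36 and 3 against 1.56. Foxa3 and Pou2f3, the tuft-cell factor, coincided in 0 cells against 6.39 expected. Trp73-high cells of adult WT mTEClo were Aire-high in 0 cells against 4.64 expected. In Aire-KO mTEChi Grhl1 and Pou2f3 coincided in 17 cells against 7.79 expected, and Grhl1 and Sox8 in 2 against 9.18. In adult WT mTEChi these pairs coincided in 38 against 31.1 and in 8 against 16.3. In adult WT mTEClo they coincided in 21 against 17.3 and in 6 against 6.14, and in newborn mTEChi in 7 against 4.09 and in 8 against 6.14. For Insm1 in adult WT mTEChi, Foxa2 coincided in 8 cells against 7.69 expected and Foxa3 in 10 against 7.81. Foxa1 with Insm1 was likewise little above its expectation there. The pairs named are a selection from all pairs compared.

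**Figure D5:**
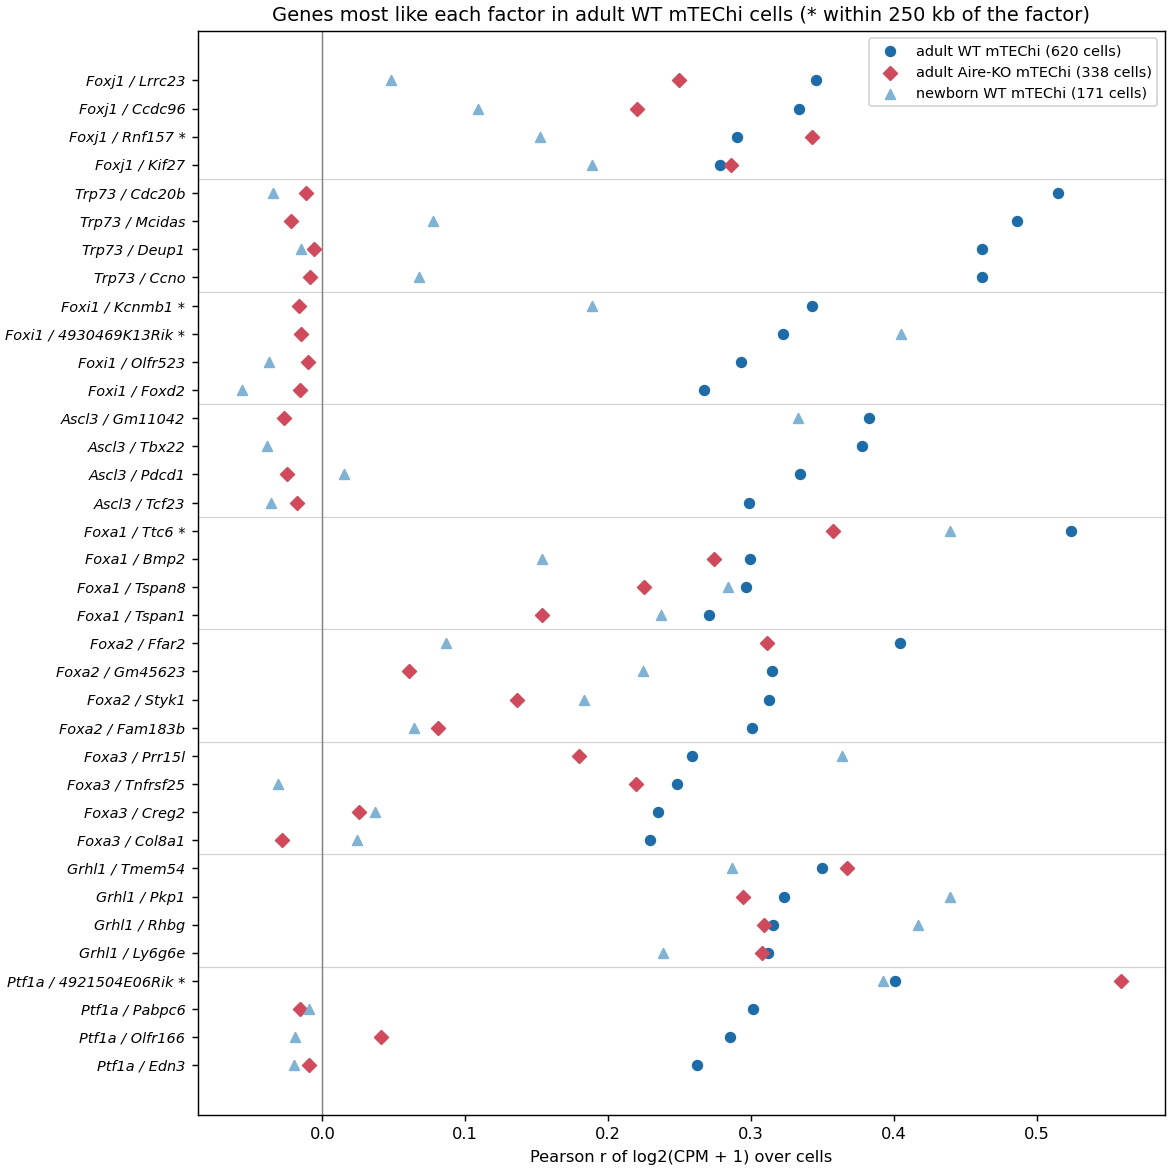
Pearson r of log2(CPM + 1) over cells (x axis) between each factor and the 4 protein-coding genes most like it in adult WT mTEChi (rows, factor / gene; circles, 620 cells), with the r of the same pair in Aire-KO mTEChi (diamonds) and newborn mTEChi (triangles); an asterisk marks a gene within 250 kb of the factor. For Trp73 the 4 genes lie at 0.46 to 0.51 in adult WT cells and between -0.03 and 0.08 in Aire-KO and newborn cells, and for Grhl1 the 3 groups lie between 0.24 and 0.44. The genes were picked for a high r in adult WT cells, so a lower r elsewhere cannot be read as lost co-expression.

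Genes most like each factor were ranked by Pearson r of log2(CPM + 1) over the 620 adult WT mTEChi cells among 18849 genes. The cells share plates and depth, so r is a description. For Trp73 they were Cdc20b (r = 0.51), Mcidas (0.49), Deup1 (0.46) and Ccno (0.46), all of the ciliated list and all known for basal-body amplification. Cdc20b, Mcidas and Ccno are neighbours on chromosome 13, and the promoters of Mcidas, Ccno and Deup1 are those printed above with an RFX core motif. The promoter of Cdc20b, the first in rank, holds no such motif. In Aire-KO mTEChi the same r values ran from -0.02 to -0.01, where 16 cells held Trp73, and in newborn mTEChi from -0.03 to 0.08, where 31 cells did. For Foxj1 they were Lrrc23 (0.35), a radial-spoke protein, Ccdc96 (0.33), Rnf157 (0.29), a neighbouring gene on chromosome 11, and Kif27 (0.28), with r from 0.22 to 0.34 in Aire-KO mTEChi.

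For Grhl1 the genes were Tmem54 (0.35), Pkp1 (0.32), Rhbg (0.32) and Ly6g6e (0.31), with r from 0.29 to 0.37 in Aire-KO mTEChi. For Foxa1 the first was Ttc6 (0.52), 17196 bases away, followed by Bmp2 (0.30), Tspan8 (0.30) and Tspan1 (0.27). For Foxa2 it was Ffar2 (0.40), a short-chain fatty acid receptor, and for Foxa3 Prr15l (0.26). For Foxi1 the first 2 lay on the same chromosome, Kcnmb1 (0.34, 230696 bases away) and 4930469K13Rik (0.32, 105783 bases away), and for Ptf1a the first was 4921504E06Rik (0.40, 15335 bases away, with both genes read in 5 cells). For Ascl3 each of the 4 genes shared at most 3 cells with it, so its values carry little weight. Over the 9 factors, 5 of the 36 genes named lay within 250 kb of their factor, beside a mean of 0.0466% of the genes compared.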

How the data were processed

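Single thymic epithelial cells of 8 groups were profiled by RamDA-seq, and whole-number counts of reads per Ensembl gene and cell were deposited. Per the study's methods, the authors cleaned reads with fastp 0.20.0, mapped them to mm10 with STAR 2.7.3a, filtered them with SAMtools 1.9, removed duplicates with Picard 2.21.1 and counted with HTSeq 0.11.2 without strand, so that overlapping antisense genes cannot be separated; cells below a minimum of reads and genes were left out. A length-scaled table of the same cells was not used. For 168 cells sequenced in 2 runs, 1 column each is given. Symbols and positions came from GENCODE M21 (GRCm38).

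Counts were summed per pool (13 pools, of which 11 mTEC) and tested with edgeR 4.0.16 (R 4.3.3; TMM, filterByExpr, quasi-likelihood F test, 2-sided, 5 residual degrees of freedom); groups of 1 pool were assumed to vary like the others. Whether pools come from separate mice is not stated, so p-values measure the spread between these pools. Each cell was thinned to 200000 reads for shares (exact binomial 95% intervals; a count of 0 allows 3 counts of the total). DESeq2 1.42.0, limma 3.58.1, other normalizations, filters, units, thresholds and left-out pools were alternatives. The scripts were tested on simulated data. The values of 1 gene of the ionocyte list are not reported here. The study's methods test over cells; pools were used because cells are not replicates. The 9 factors and the gene lists were chosen with earlier results of these data known. Named genes were the 9 factors, the 3 most expressed genes of each list, the related and other lineage factors, genes called in the lists, and the 4 genes most like each factor; list genes beyond this rule were named after their values were seen.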

Additional observations from a re-analysis of the deposited data

Results flagged for a closer look

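Of 18 tests of single pools over the groups of 4 pools, 2 met the criterion of a gap to the next pool larger, relative to the range, than Dixon's critical value for 4 values; chance alone gives about 1 in 20. Foxa2 stood at 21.0 CPM in adult WT mTEChi pool 3, the pool of 12 cells, against 1.05 to 3.84 CPM in the other 3 pools. In pool 3, 2 cells held 100% of the Foxa2 reads. Ptf1a stood at 1.77 CPM in adult WT mTEChi pool 1, against 0.103 to 0.273 CPM in the other 3. In pool 1, 2 cells held 94.0% of the Ptf1a reads, and its other cells stood at 0.106 CPM. Neither gene was called in any comparison by edgeR over pools.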

How the results depend on the processing

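No paired analysis was possible because the replicate numbers in the labels count cells, and no experimental batch holds both groups of a comparison. The newborn sorts, which share 5 batches, were not compared with each other, and the fit over batches treated them as separate. Of the log2 fold changes recomputed, 93.5% kept their direction and their side of the threshold and 32 changed sign, none of them a called value. In adult WT mTEChi against mTEClo, 1 factor was called as reported, 2 with limma and equal weight per cell (Grhl1 at 1.33 beside Foxj1), and 0 to 1 with 1 pool left out (0 without mTEClo pool 1). In Aire-KO against WT mTEClo DESeq2 called 1 factor (Ptf1a, at 0 reads in Aire-KO and in WT mTEClo pools 1 and 3). In newborn against adult mTEClo 1 factor each was called by DESeq2 (Ptf1a, at 0 reads in newborns and in the same WT pools), by edgeR over experimental batches (Foxa2, -3.86) and by limma (Trp73, 2.22). The 3 pairs together in adult WT mTEChi became 1 with another random draw, 1 without thinning, and 0 to 3 with 1 pool left out. Counts of cells with 50% of the ciliated list (7, 7 to 10 under 3 alternatives chosen after seeing the data) and of Foxi1-high cells (17 in WT, 16 to 23; 0 in Aire-KO under each) stayed close. Without mTEClo pool 3, chosen after seeing the data, the calls higher and lower in mTEChi against mTEClo were 5 and 2 of the ciliated list (3 and 1 with it), 4 and 2 of the ionocyte list (5 and 2), 6 and 0 of the skin list (5 and 0), and as reported in number for the secretory (5 and 0) and acinar (3 and 1) lists.

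Signs that turned, on the log2 scale, were as follows. With age as a covariate they were Trp73 (0.24) and Ascl3 (3.44) in mTEChi against mTEClo and Ascl3 (3.29) in Aire-KO mTEClo. With experimental batches as units they were Foxa1 (0.58) in mTEChi against mTEClo, Foxj1 (-0.035) and Foxa1 (-0.44) in Aire-KO mTEChi, Grhl1 (-0.24) in Aire-KO mTEClo and Ascl3 (-0.18) in newborn mTEChi. With limma they were Ascl3 (0.019), Foxa1 (0.92) and Ptf1a (0.020) in mTEChi against mTEClo, Ascl3 (0.019), Foxa1 (-0.60) and Grhl1 (-0.89) in Aire-KO mTEChi, Ascl3 (0.086) and Grhl1 (-0.14) in Aire-KO mTEClo and Ascl3 (0.0054) in newborn mTEClo. Against adults of 4 and 5 weeks only, newborn mTEClo turned for Foxi1 (2.66), Ascl3 (3.04) and Grhl1 (0.069). With 1 pool left out at a time, the ranges that crossed 0 in mTEChi against mTEClo were Trp73 -1.71 to 0.34 and Ascl3 -2.02 to 4.42 (both highest without mTEClo pool 3) and Ptf1a -3.34 to 9.06 (highest without mTEClo pool 2). In Aire-KO mTEChi it was Ascl3 -0.71 to 0.098 (highest without mTEChi pool 1). In Aire-KO mTEClo they were Ascl3 -0.95 to 5.49 (highest without mTEClo pool 3) and Grhl1 -0.18 to 0.50 (lowest without mTEClo pool 1, and -0.055 without pool 2). In newborn mTEChi it was Foxa2 -1.47 to 0.33 (highest without mTEChi pool 3). In newborn mTEClo they were Foxi1 -2.85 to 2.65, Ascl3 -3.42 to 3.03 and Grhl1 -0.62 to 0.063 (each highest without mTEClo pool 3) and Foxa3 -1.34 to 0.42 (highest without mTEClo pool 1). The cause was not tested. Single pools in 6 of the 8 groups limit every comparison of genotype and age.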

Other observations

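Trp73 was most widely read in newborn mTEClo (55.6% of cells), newborn cTECs (42.4%) and adult cTECs (39.0%), with 29, 10 and 15 Trp73-high cells. In cells high in Trp73 without Foxj1 the median number of ciliated-list genes on was 3, 4 and 4, beside 3, 4 and 3 in cells high in neither factor. The newborn mTEClo pool also held more of the cTEC markers (1826.6 CPM) than the adult mTEC pools, and the part of these cells in the level of Trp73 was not tested.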
